A study of Mus musculus with 2 samples.

Results

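The cells described here were the 333 cells that the authors' cell table annotated Midgut, out of 5678 annotated cells of mouse embryos at E11.5. They were found by that annotation and joined by barcode to the filtered count matrices. Each cell came from 1 of 4 suspensions that had been marked with lipid-anchored oligos (CellPlex), pooled and captured together as 1 droplet library. All embryos carried an EGFP transgene under the CAG promoter, linked to a DNA barcode and integrated with the piggyBac transposase. F0_8 and F0_9 were each 1 founder embryo, in which cells may differ in their integrations. The F1 generation, which inherits integrations through the germ line, was represented by F1_1, from 1 embryo, and by F1_mix, in which cells of 2 embryos had been combined to imitate a mosaic. Where 4 values follow each other below, the founders come first (F0_8, then F0_9) and the F1 suspensions second (F1_1, then F1_mix). The embryos were digested with trypsin and debris was removed by sorting before capture. The annotated Midgut cells numbered 103 and 45 in the founders and 98 and 87 in the F1 suspensions, and none of the 6006 barcodes of the filtered matrices was shared between suspensions.

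The midgut is the middle stretch of the embryonic gut tube, and its endoderm gives rise to most of the small intestine. The caudal homeobox genes Cdx2 and Cdx1 pattern this endoderm, Foxa2, Hnf4a and Epcam mark gut epithelium more widely, and Fabp1 encodes a fatty acid-binding protein of absorptive cells. Neurons of the same embryo are known instead by the microtubule and neurofilament proteins of their axons, by the Elavl and Rbfox RNA-binding proteins, and by adhesion and guidance receptors such as Dcc and the neurexins, many of which are encoded by very long genes.

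The counts of these cells did not bear out the name. The markers Cdx2, Cdx1 and Fabp1 were at 0 UMIs in all 333 cells, which together held 304099 UMIs outside mitochondrial genes. These genes had only 12, 8 and 2 UMIs over all annotated cells, so their absence says little by itself. The 12 gut endoderm genes summed to 0.197 UMIs per 10000 outside mitochondrial genes, against 17.6 in Epithelial Cell and 0.592 in near-empty droplets. The pan-neuronal list summed to 56.0 UMIs per 10000 outside mitochondrial genes, against 30.4 in near-empty droplets. The text therefore calls them the annotated Midgut cells and gives them no other name. Their median UMI count was low, and their pan-neuronal level lay below that of cells annotated Neuroectoderm/Glia and CNS Neuron. All 10 genes of that list were at least 2-fold above the median of the 12 deeper types. Only Elavl3 of the list was among the 15 genes with the highest ratio to that median.

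The annotated Midgut cells were shallow. Their median was 998 gene UMIs and 589 genes per cell, against 11438 UMIs in cells annotated Neuroectoderm/Glia and 10899 in CNS Neuron. Mitochondrial genes took a median of 27.7% of their gene UMIs, against 2.26% in Neuroectoderm/Glia and 2.10% in CNS Neuron. The median mitochondrial share was 31.3% and 29.1% in the founders and 27.5% and 20.7% in the F1 suspensions, so it was higher in both founders than in both F1 suspensions. The mitochondrial percentage in the deposited table, whose total also counts the oligos, had a median of 1.65% for the same cells. Foregut, Hepatocyte and Endodermal Progenitor were the 3 other annotated types with a median under 2000 gene UMIs and a median mitochondrial share over 20%, and the remaining 12 types are called the deep types below. Of the 333 cells, 307 lay in 1 cluster of the authors' RNA assay, which held 320 cells in all.

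Annotated Midgut cells made up 6.44% (exact Clopper-Pearson 95% interval 5.29 to 7.76%) and 3.41% (2.501 to 4.54%) of the cells of the founders. They made up 7.48% (6.11 to 9.04%) and 5.996% (4.83 to 7.34%) of the cells of the F1 suspensions. The lowest share was that of a founder, and the other founder lay between the 2 F1 suspensions. The mean was 4.93% in founders and 6.74% in the F1 generation, a difference of -1.81 percentage points that an exact two-sided permutation test could not resolve (p = 0.667; the smallest p for 2 against 2 is 0.333). These intervals, and those given for levels below, cover counting error only.

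Levels below are UMIs per 10000 UMIs outside mitochondrial genes, not divided by gene length, and an interval after a level is an exact Poisson 95% interval. The clustering used these genes, so differences between the annotated types are described and not tested. Counts of genes that differed use a fold of 2 between levels with a pseudocount of 0.1 added to both, over genes at 0.3 or more in at least 1 of the 2 profiles.

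Genes of the gut endoderm, gut absorption, hepatocytes and gut mesenchyme were at or near the floor. Of the 4 Midgut markers only Hoxb9 was detected, a posterior Hox gene of all germ layers, at 26 UMIs and a level of 0.855 (0.559 to 1.25). It stood at 0.524 and 0.312 in the founders and 1.32 and 0.861 in the F1 suspensions, below its levels of 2.16 in CNS Neuron and 1.86 in Neuroectoderm/Glia. In near-empty droplets the 4 markers summed to 0.869, nearly all of it Hoxb9. Cdx2, Cdx1 and Fabp1 were rare in the whole series, with 12, 8 and 2 UMIs over all annotated cells. A count of 3 UMIs in the annotated Midgut cells would be a level of 0.0987.

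Of the 12 gut endoderm genes, 3 were detected, with 6 UMIs in all. The epithelial adhesion gene Epcam had 4 of these UMIs and the keratin genes Krt8 and Krt18 had 1 each, while Foxa2, Foxa1, Foxa3, Hnf4a, Sox17, Cldn6, Ihh and Vil1 were at 0. The summed level was 0.197 (0.0724 to 0.429), against 17.6 in Epithelial Cell, the highest of the 16 types, 0.172 in Neuroectoderm/Glia and 0.592 in near-empty droplets. None of the 12 genes of gut absorption and secretion had a UMI. The hepatocyte list had 2 UMIs, the gut mesenchyme list 1, and the foregut list 27 (0.888, against 0.926 in Neuroectoderm/Glia). Of the 9 hedgehog, Wnt and BMP signals of the gut tube, 6 were detected, at a summed level of 2.47, rank 10 of 16 types. Of the 18 posterior gut and patterning regulators, which include Hox genes, 5 were detected, at 2.47 against 4.32 in Neuroectoderm/Glia.

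**Figure D1:**
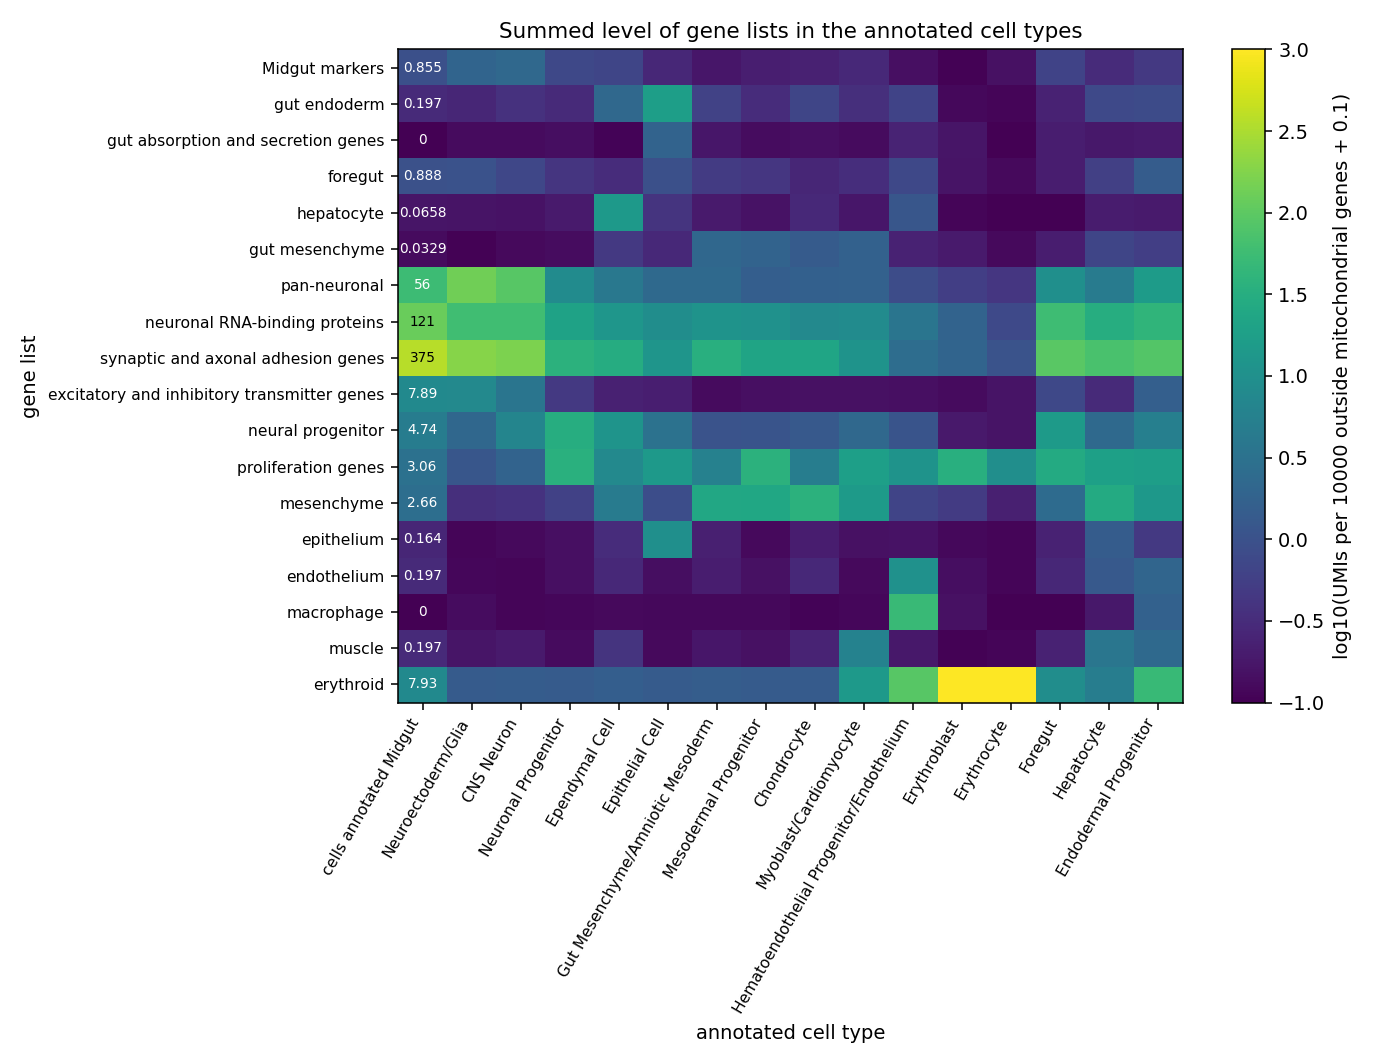
Summed level of 18 gene lists (rows) in the 16 annotated cell types (columns), as log10 of UMIs per 10000 outside mitochondrial genes plus 0.1, pooled over 4 suspensions; the level of the annotated Midgut cells is written in the first column. The gut lists lie at 0 to 0.888 in that column, while the pan-neuronal list lies at 56.0 and the synaptic and axonal adhesion list at 375.

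The pan-neuronal and adhesion lists stood above near-empty droplets. All 10 pan-neuronal genes were detected, and their summed level was 56.0 (53.3 to 58.7). It was 47.8 and 49.0 in the founders and 57.3 and 62.9 in the F1 suspensions, lower in both founders than in both F1 suspensions. Neuroectoderm/Glia stood at 135 and CNS Neuron at 91.5, and in every suspension both lay above the annotated Midgut cells. Neuronal Progenitor, the dividing neural cells of the series, and the remaining types stood at no more than 15.7. After each cell was thinned to 500 UMIs outside mitochondrial genes, 90.8% of 260 annotated Midgut cells held a pan-neuronal UMI (86.6 to 94.0%; 91.3% unthinned, 73 shallower cells left out). The same share was 99.0% in Neuroectoderm/Glia, 94.0% in CNS Neuron and 30.5% in Neuronal Progenitor. It was 38.9% in Foregut, 31.1% in Endodermal Progenitor and 22.2% in Hepatocyte, the other shallow types, and 5.75% in Myoblast/Cardiomyocyte, a deep type that should lack these genes. Near-empty droplets held fewer than 500 UMIs and gave no such share. Their own pan-neuronal level of 30.4 is more than 1 UMI in 500, so a UMI in a cell was not read by itself as expression.

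The 20 synaptic and axonal adhesion genes were all detected and summed to 375 (368 to 382), the highest of the 16 types. The sum was 371 and 313 in the founders and 360 and 410 in the F1 suspensions, against 186 in Neuroectoderm/Glia and 160 in CNS Neuron. Relative to Neuroectoderm/Glia, 6 of the 20 were at least 2-fold higher and none was 2-fold lower, and relative to CNS Neuron 18 of 20 were higher. Over all 7106 genes above the floor against Neuroectoderm/Glia, 24.0% were 2-fold or more higher and 22.2% lower, and over 7062 genes against CNS Neuron 26.9% were higher and 21.6% lower. The counts against Neuroectoderm/Glia, 1706 higher and 1579 lower, became 883 and 1910 per all gene UMIs, and 275 and 451 with a pseudocount of 1. The share of the list that was higher was close to that of all genes against Neuroectoderm/Glia and above it against CNS Neuron. The median log2 difference was 0.62 for the list against Neuroectoderm/Glia and 0.31 over all genes, but 1.02 over all genes longer than 300 kb, and the median span of the list was 1079 kb. Against CNS Neuron the median log2 difference was 2.29 for the list and 1.73 over all genes longer than 300 kb.

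Marker lists of other tissues were mostly low, with traces of several. The macrophage list was at 0 UMIs, the epithelium list at 5 UMIs, and the endothelium and muscle lists at 6 each. The neural crest and glia list stood at 0.625, against 0.766 in Neuroectoderm/Glia and 4.82 in Ependymal Cell. The mesenchyme list stood at 2.66 (2.12 to 3.31), against 0.243 in Neuroectoderm/Glia, 37.0 in Chondrocyte and 14.7 in near-empty droplets. The chondrocyte list stood at 6.71, against 2.24 in Neuroectoderm/Glia, 9.39 in Chondrocyte itself and 8.82 in near-empty droplets. The extracellular matrix list stood at 8.32, rank 10 of 16 types, against 26.1 in near-empty droplets. The erythroid list, mostly globins, stood at 7.93 (6.96 to 8.99), 8 of its 9 genes being detected, against 1.32 in Neuroectoderm/Glia and 37.1 in near-empty droplets.

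The part of free RNA in these levels was not tested, and levels are given here beside those of near-empty droplets. The erythroid level was 21.4% of that in near-empty droplets (18.8 to 24.2%), and 3.55% in Neuroectoderm/Glia. Genes of the Y chromosome had 30 and 2 UMIs in the founders and 1 and 21 in the F1 suspensions, so they were high in the same 2 suspensions as in Neuroectoderm/Glia, which had 381, 6, 3 and 123 UMIs. In the suspensions with few such UMIs, their level was 32.4% of that in near-empty droplets in F0_9 (3.92 to 117%) and 5.69% in F1_1 (0.144 to 31.7%). The pan-neuronal level in near-empty droplets was 30.4 and the synaptic and axonal adhesion level 156, both below the annotated Midgut cells. The short cytoskeletal genes of neurons went the other way, at 75.2 in near-empty droplets and 45.1 in these cells.

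The neural progenitor list stood at 4.74, against 31.0 in Neuronal Progenitor, 6.41 in CNS Neuron, 2.08 in Neuroectoderm/Glia and 6.42 in near-empty droplets. Of its 4 genes above the floor against Neuroectoderm/Glia, 2 were 2-fold higher and none was lower, against 24.0% and 22.2% of all genes. Of its 6 above the floor against CNS Neuron, 1 was higher and 3 were lower, against 26.9% and 21.6% of all genes. Its member Pax6 stood at 0.658. The members Sox2, a stem cell factor, and Fabp7, a lipid-binding protein of radial glia, were lower, at 0.197 and 0.427. In Neuronal Progenitor these 2 stood at 4.28 and 14.7. The 12 proliferation genes summed to 3.06 (2.47 to 3.75), against 36.7 in Mesodermal Progenitor, 1.76 in CNS Neuron, 1.08 in Neuroectoderm/Glia and 16.6 in near-empty droplets. The proliferation marker Mki67 and the topoisomerase gene Top2a had 11 and 16 UMIs. The 12 immediate early and heat shock genes summed to 5.98, the second lowest of the 16 types, and the 10 p53 and apoptosis genes to 3.09 against 6.27 in Neuroectoderm/Glia.

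The summed profile was nearest to the same 2 neuronal types. Over the 2000 genes with the most variation among the deep types, each centred on its mean, the profile of the annotated Midgut cells had a Pearson r of 0.77 with Neuroectoderm/Glia (Spearman 0.76) and 0.72 with CNS Neuron (Spearman 0.72). The summed profile of near-empty droplets had the same order of the leading types, with 0.52 for Neuroectoderm/Glia, 0.46 for CNS Neuron and 0.24 for Neuronal Progenitor. For the annotated Midgut cells the next type was Neuronal Progenitor at 0.23, and Gut Mesenchyme/Amniotic Mesoderm and Epithelial Cell stood at -0.03 and -0.19. With Neuroectoderm/Glia r was 0.73 and 0.67 in the founders and 0.75 and 0.76 in the F1 suspensions, and in each suspension it was above that with CNS Neuron (0.65, 0.61, 0.72 and 0.73). The order of these 2 types turned when genes over 100 kb were left out (0.68 and 0.70), while Neuronal Progenitor again came next at 0.16. Profiles of 2 suspensions of annotated Midgut cells correlated at 0.83 to 0.91. These correlations run across genes, which are not independent replicates, and the profiles share the library.

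**Figure D2:**
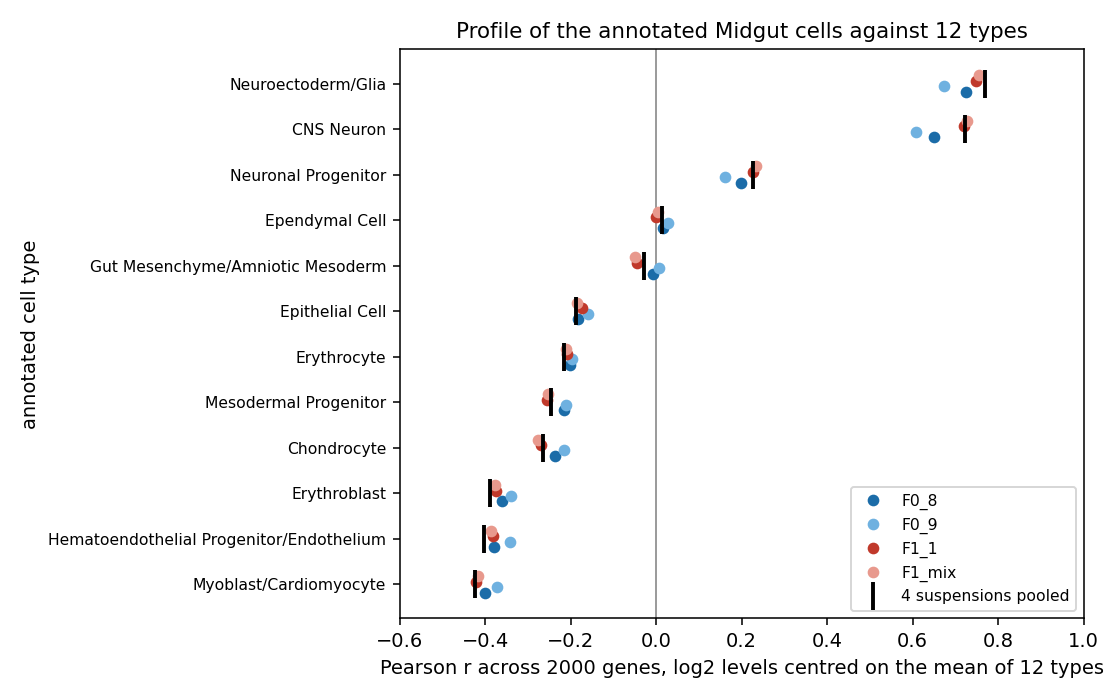
Pearson r (x axis) between the centred log2 profile of the annotated Midgut cells and that of each of 12 annotated types (y axis), for each suspension (points) and pooled (black ticks). Neuroectoderm/Glia and CNS Neuron lie at 0.61 to 0.77, Neuronal Progenitor at 0.16 to 0.23 and every other type below 0.03.

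Single cells gave the same picture. Each cell was given the deep type whose profile, from the 3 other suspensions, made its counts most likely. All 333 cells went to Neuroectoderm/Glia (227 cells, 68.2%) or CNS Neuron (106 cells, 31.8%). The share that went to Neuroectoderm/Glia was 69.9% and 73.3% in the founders and 69.4% and 62.1% in the F1 suspensions, with overlapping intervals. As a yardstick, cells of the deep types thinned to the depths of annotated Midgut cells returned to their own type in 78.0 to 96.8% of cases, and 1.01% of thinned Neuronal Progenitor cells and 0% of the other 9 types, Ependymal Cell among them, went to either neuronal type. When the 3 other shallow types were added as candidates, 225 of the 333 cells went to Foregut, 78 to Neuroectoderm/Glia, 16 to Endodermal Progenitor, 9 to Hepatocyte and 5 to CNS Neuron. The profile of Foregut was itself nearest to Neuronal Progenitor (r = 0.60), and its pan-neuronal level was 9.72.

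The genes with the highest ratio to the median of the deep types included receptors, splicing regulators and synaptic genes of neurons. By the rule for named genes, the 15 genes with at least 50 UMIs and a level above that median in all 4 suspensions ran from Ptprn2 at 48.5-fold to Nrxn3 at 109-fold. Over all 7208 genes above the floor in this comparison, 34.6% were 2-fold or more higher and 22.7% lower. These 15 genes were Nrxn3, Srrm4, Akap6, Nav2, Dcc, Rbfox3, Pou2f2, Cadps, Cntnap2, Thsd7b, Srrm3, Myt1l, Fam155a, Elavl3 and Ptprn2. All were also higher than in Neuroectoderm/Glia, by 1.31- to 13.9-fold. Of the 15, 12 span more than 100 kb. In that class 53.4% of all genes above the floor were 2-fold higher than in Neuroectoderm/Glia.

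Nrxn3 encodes a presynaptic adhesion protein and spans 1612 kb on chromosome 12 (GRCm38, 88722701 to 90334935). Its level was 81.1 and 60.6 in the founders and 66.5 and 77.5 in the F1 suspensions, against 38.3 in Neuroectoderm/Glia, 19.9 in CNS Neuron and a median of 0.574 in the deep types. All 4 suspensions lay above every suspension of both neuronal types, and 56.5% of the cells held a UMI.

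Dcc, the receptor for the axon guidance cue netrin, had the most UMIs of any gene outside the mitochondrial ones, at 3415. Its level was 69.4 and 72.1 in the founders and 120 and 149 in the F1 suspensions, lower in both founders than in both F1 suspensions. It stood at 29.9 in Neuroectoderm/Glia, 89.0 in CNS Neuron and 43.9 in near-empty droplets, so that both founders lay between the neuronal types and both F1 suspensions above them. The other 9 genes with the most UMIs were Nrxn3, Nav2, the neuronal catenin Ctnna2, the axon initial segment ankyrin Ank3, the transcription factor Ebf1, Setbp1, the Slit receptor Robo1, the homeobox factor Zfhx3 and the corepressor Rere.

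Nav2, a microtubule-associated protein of growing neurites, lies on chromosome 7 (48959063 to 49610090). Its level was 45.3 and 47.8 in the founders and 52.2 and 59.7 in the F1 suspensions, against 6.22 in Neuroectoderm/Glia and 14.9 in CNS Neuron. The 4 suspensions did not overlap those of either type.

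Regulators of neuronal splicing and RNA stability were detected throughout. This list and the neuron lists that follow were chosen after values had been seen. The 14 neuronal RNA-binding protein genes summed to 121 (117 to 125), with 129 and 135 in the founders and 118 and 114 in the F1 suspensions, against 58.5 in each neuronal type. Of the 14, 5 were at least 2-fold higher than in Neuroectoderm/Glia and none was lower, a share not far from the 24.0% of all genes, and 8 were higher than in CNS Neuron, against 26.9% of all genes. Srrm4, which drives the inclusion of neuronal microexons, stood at 15.6 and 24.97 in the founders and 16.5 and 17.98 in the F1 suspensions, against 3.09 in Neuroectoderm/Glia and 8.70 in CNS Neuron. Rbfox3, the antigen NeuN of maturing neurons, stood at 10.9 and 14.98 in the founders and 7.24 and 7.08 in the F1 suspensions, against 1.28 and 1.995. Both genes lay above the neuronal types in every suspension, and Rbfox3 was higher in both founders than in both F1 suspensions. Elavl3, a neuronal RNA-stabilising protein, stood at 8.39, against 5.95 and 7.09.

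**Figure D3:**
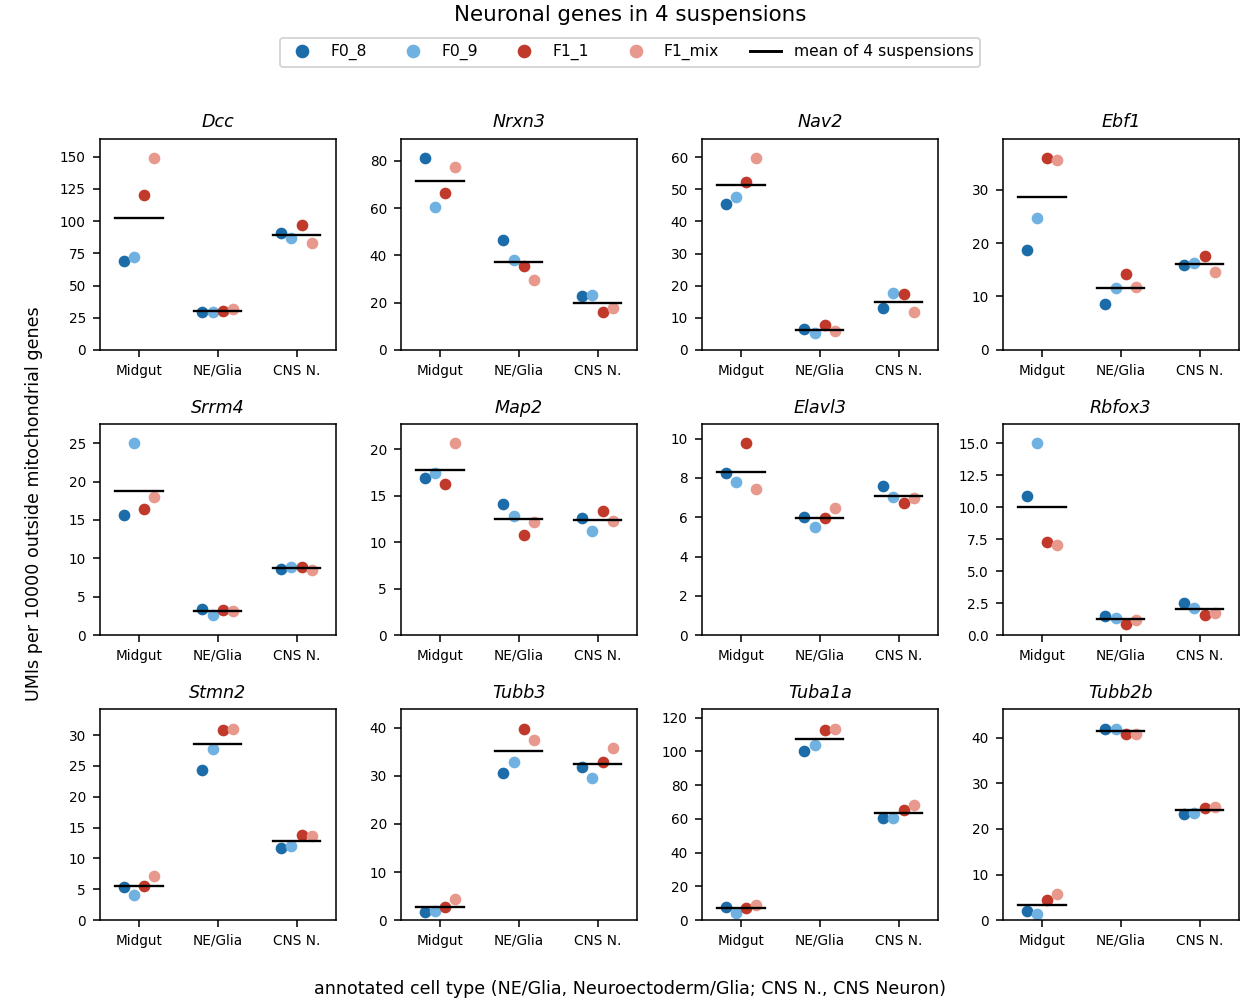
Level of 12 neuronal genes (y axes, UMIs per 10000 outside mitochondrial genes, each from 0) in 3 annotated types, with a point per suspension and a line at the mean of 4. Nrxn3, Nav2, Srrm4 and Rbfox3 lie higher in the annotated Midgut cells, and Stmn2, Tubb3, Tuba1a and Tubb2b lower.

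Axon guidance receptors and channel genes also had a higher sum than in both neuronal types. The 12 guidance receptors, which share Dcc, Robo1 and Robo2 with the adhesion list, summed to 190.0 against 71.0 in Neuroectoderm/Glia and 117 in CNS Neuron, and 5 of 12 were 2-fold higher than in Neuroectoderm/Glia. Robo3, a receptor of commissural axons before they cross the midline, had 164 UMIs and stood at 2.36 and 6.87 in the founders and 5.59 and 6.98 in the F1 suspensions, against 1.90 in Neuroectoderm/Glia and 1.85 in CNS Neuron. The 20 channel and synaptic release genes summed to 122, against 64.4 and 35.5, with 7 of the 19 above the floor 2-fold higher than in Neuroectoderm/Glia and 17 of 19 higher than in CNS Neuron. Against CNS Neuron 10 of the 12 guidance receptors were higher, and both shares lay well above the 26.9% of all genes. Against Neuroectoderm/Glia they were nearer to its 24.0%. The median spans of the 2 lists were 366 and 340 kb. Their median log2 differences against CNS Neuron were 1.55 and 1.92, beside 1.73 over all genes longer than 300 kb. Against Neuroectoderm/Glia these were 0.87 and 0.76, beside 1.02. Among the channel and release genes were the kainate receptor Grik2 at 18.1, the calcium channel subunits Cacna2d1 at 15.2 and Cacna2d3 at 15.1, and the vesicle priming factor Cadps at 14.5, against 7.07, 9.38, 5.44 and 8.50 in Neuroectoderm/Glia.

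Transmitter genes were present at low levels. The 8 excitatory and inhibitory transmitter genes summed to 7.89 (6.93 to 8.96), against 7.65 in Neuroectoderm/Glia, 3.55 in CNS Neuron and 2.71 in near-empty droplets, and none of the 6 above the floor differed 2-fold from Neuroectoderm/Glia. Gad2, which makes GABA, had 97 UMIs and stood at 4.32 and 1.87 in the founders and 2.30 and 3.54 in the F1 suspensions. The glycine transporter Slc6a5 had 48 UMIs, Gad1 had 40 and the vesicular glutamate transporter Slc17a6 had 34. Genes of both inhibitory and excitatory neurons were therefore found in the pool of cells, and a UMI of Gad2 was seen in 13.5% of cells. The 12 genes of motor, monoamine and sensory neurons had 9 UMIs in all, of which the dopamine synthesis enzyme gene Th had 3, and Chat, Slc18a3, Mnx1, Isl2 and Prph were at 0.

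Transcription factors of spinal cord and hindbrain interneurons were detected across the list. All 20 had a UMI, and they summed to 19.4 (17.9 to 21.0), against 18.5 in Neuroectoderm/Glia and 23.6 in CNS Neuron. Of the 16 above the floor, 3 were 2-fold higher than in Neuroectoderm/Glia and 4 lower, shares close to the 24.0% and 22.2% of all genes. Pax2, a factor of inhibitory interneurons, stood at 4.72 and 3.75 in the founders and 3.73 and 5.07 in the F1 suspensions, against 1.77 in Neuroectoderm/Glia and 2.60 in CNS Neuron. Lhx1 stood at 1.81 against 2.66 and 2.08, and Pou4f1 at 1.48 against 0.575 and 1.36. The 12 forebrain factors summed to 1.09 (0.747 to 1.52), against 2.97 and 2.36, with Otx2 at 0 UMIs.

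Hox genes, which mark position along the body axis, had UMIs for anterior and posterior levels. The 16 anterior Hox genes summed to 11.1 (9.96 to 12.4), against 13.1 in Neuroectoderm/Glia and 13.4 in CNS Neuron. Hoxb3 led with 99 UMIs and a level of 3.26, against 1.84 and 2.09. The 13 posterior Hox genes summed to 3.32 (2.71 to 4.04), against 9.96 and 10.1, and 6 of the 9 above the floor were 2-fold lower than in Neuroectoderm/Glia, against 22.2% of all genes. Of all genes of at most 10 kb, 70.1% were lower, and the Hox genes are mostly of that length. In the anterior list 3 of 13 were lower and none higher. The median span was 4.03 kb in the anterior and 4.56 kb in the posterior list. In near-empty droplets the anterior list stood at 6.79, below the annotated Midgut cells, and the posterior list at 3.96, above them. The posterior level was therefore not read as expression in these cells.

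Early differentiation factors split by gene. The 14 genes summed to 66.1 (63.2 to 69.1), the highest of the 16 types, against 27.9 in Neuroectoderm/Glia and 46.5 in CNS Neuron. Most of the sum came from 3 members of 1 family, in which Ebf1, Ebf2 and Ebf3 had 920, 409 and 319 of the 2010 UMIs. Ebf1 stood at 18.7 and 24.7 in the founders and 35.9 and 35.5 in the F1 suspensions, against 11.1 and 16.002. The proneural gene Neurog2 and the early neuronal factors Nhlh1 and Nhlh2, all short genes, stood at 0.296, 0.197 and 0.625. In CNS Neuron they stood at 1.73, 1.23 and 5.75. Relative to CNS Neuron 4 genes of the list were 2-fold higher and 8 lower, against 26.9% and 21.6% of all genes. Only the lower share stood apart from that of all genes. The median span of the list was 8.74 kb. Its median log2 difference from CNS Neuron was -1.63, beside -1.49 over all genes of at most 10 kb.

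Short genes of the neuronal cytoskeleton went the other way. All 14 of that list were at least 2-fold lower than in Neuroectoderm/Glia, and 11 of 14 were lower than in CNS Neuron, against 22.2% and 21.6% of all genes. Their sum was 45.1 (42.8 to 47.6), against 409 and 249, and it was 39.6 and 31.2 in the founders and 48.4 and 50.6 in the F1 suspensions. Tuba1a, the main tubulin of young neurons (chromosome 15, 98949847 to 98953501, a span of 3.66 kb), stood at 7.597 and 4.37 in the founders and 7.35 and 8.99 in the F1 suspensions, against 106 in Neuroectoderm/Glia and 63.7 in CNS Neuron. Tubb3, the neuronal beta tubulin (chromosome 8, 123411553 to 123422015), stood at 1.70, 1.87, 2.74 and 4.40 in the same order, against 34.4 and 32.6. The pooled level of Tubb3, 2.96, also lay below the 4.36 of near-empty droplets, and both genes lay below every suspension of the neuronal types.

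The difference from Neuroectoderm/Glia followed the genomic span of the gene. The median log2 difference was -1.47 over 1356 genes of at most 10 kb, -0.35 over 1884 genes of 10 to 30 kb, 0.63 over 2239 genes of 30 to 100 kb, 1.06 over 1136 genes of 100 to 300 kb and 1.02 over 453 longer genes. These are pooled values with a pseudocount of 0.1. Within single suspensions, where a pseudocount of 1 was used, the medians were -0.58 to -0.56 for genes of at most 10 kb and 0.49 to 0.56 for genes of 100 to 300 kb. Against CNS Neuron the same 5 pooled medians were -1.49, -0.37, 0.60, 1.13 and 1.73. Genes of at most 10 kb took 10.6% of the UMIs of annotated Midgut cells outside mitochondrial genes and 36.5% of those of Neuroectoderm/Glia, and genes over 300 kb took 23.2% and 10.8%. The share of the shortest class was 10.4% in each founder and 11.1% and 10.2% in the F1 suspensions. It was 13.6% in Foregut and 13.3% in Hepatocyte, and 24.2% in Endodermal Progenitor.

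Neuronal genes were split along the same line. Of 52 genes of 4 neuronal lists with a known span, 13 of the 15 genes of at most 30 kb were 2-fold lower than in Neuroectoderm/Glia, while none of the 28 genes over 100 kb was lower and 8 were higher. Of all 3240 genes of at most 30 kb, 45.3% were 2-fold lower, and of the 1356 of at most 10 kb, 70.1%. Of all 1589 genes over 100 kb, 53.4% were 2-fold higher and 0.315% lower, with a median log2 difference of 1.05 against 0.62 for the 28 neuronal genes. Ribosomal protein genes, most of them short, summed to 247 against 822 in Neuroectoderm/Glia, and 77 of the 80 above the floor were 2-fold lower. Nuclear genes of the respiratory complexes summed to 44.7 against 221, with 67 of 72 lower and 1 higher. Both sums were the lowest of the 16 types, but those of Foregut (402 and 56.5) and Hepatocyte (371 and 56.4) were low too, while the 13 mitochondrial genes took a higher share. The only RNA of the nuclear-retained list among the gene features, Snhg11, stood at 3.78 against 3.51. The part of gene span in the ratios of single genes was not tested.

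**Figure D4:**
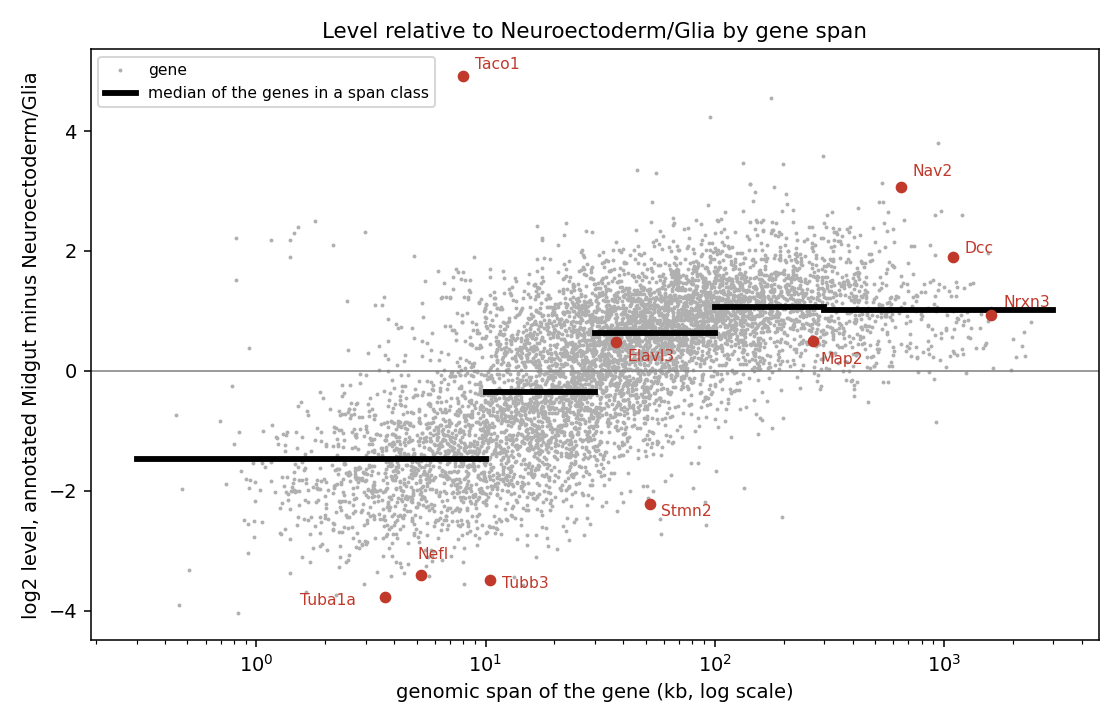
Log2 difference in level between the annotated Midgut cells and Neuroectoderm/Glia (y axis) against the genomic span of each gene (x axis, kb, log scale); grey points are the genes above the floor with a known span, black bars the medians of 5 span classes and red points named genes. The bars rise from -1.47 for genes of at most 10 kb to 1.06 for genes of 100 to 300 kb, and Taco1 stands apart among the short genes.

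Taco1 was the 1 gene under 30 kb among the 10 genes with the highest ratio to Neuroectoderm/Glia and at least 50 UMIs. It encodes a nuclear-made activator of the translation of mitochondrial Cox1 and lies on chromosome 11 (106066057 to 106074035, a span of 7.98 kb). Its level was 8.38 and 7.18 in the founders and 3.62 and 2.58 in the F1 suspensions, in the order of the mitochondrial share of the suspensions. It was 0.0637 in Neuroectoderm/Glia, 0.161 in CNS Neuron and 0.543 in near-empty droplets, and it reached 16.4 in Endodermal Progenitor, whose median mitochondrial share was 55.9%.

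Among genes with at least 50 UMIs, the other 9 with the highest ratio to Neuroectoderm/Glia ran from 8.66-fold (Wwc1) to 23.5-fold (Eya2). Of the 10 genes including Taco1, 7 span more than 100 kb. Eya2, a transcriptional coactivator, stood at 6.03 and 7.18 in the founders and 6.03 and 5.83 in the F1 suspensions, against 0.164 in Neuroectoderm/Glia and 3.39 in CNS Neuron. The dorsal neural tube factor Pax3 had 71 UMIs and stood at 2.34, against 0.0293 and 1.55. The potassium channel subunit Kcnmb2 stood at 8.68 against 0.635 and 1.91, and Thsd7b at 15.6 against 1.03 and 5.86, with a UMI of Thsd7b in 22.2% of cells. Tspan18, Svil, Rhbdl3, Adgrv1 and Wwc1 stood at 1.91 to 4.01.

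The 10 genes with the lowest ratio to Neuroectoderm/Glia were all under 30 kb. They were Mrpl34 and Ndufb5, of the mitochondrial ribosome and respiratory complex I, the cytoskeletal genes Tuba1a, Tubb3, Stmn3 and Tagln3, and H2bu2, Mab21l2, Ndn and Pafah1b3. Against the median of the deep types, the lowest ratios were those of Sparc, a matrix protein, Id3, an inhibitor of bHLH factors, the glycolytic enzyme Tpi1, the peroxiredoxin Prdx1, Rpl10, Ndufb5, Ifitm2, Mrpl13, the chromatin protein Hmgn2 and the proteasome subunit Psmb5. Rpl10 stood at 1.38 against 17.9, and Sparc had 2 UMIs.

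Relative to the highest of the other shallow types, the leading genes included Dscam, Svop, Myt1l and Nrxn3. Dscam, an adhesion receptor of neurites, stood at 5.24 and 7.18 in the founders and 5.70 and 5.74 in the F1 suspensions, against at most 0.286 in the other shallow types. Myt1l, a repressor of non-neuronal genes, stood at 6.64 against 0.640, and the synaptic vesicle protein Svop stood at 2.93 against 0.107.

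The cells varied among themselves with their mitochondrial share. The 167 cells at or below its median held a pan-neuronal level of 60.2 (56.8 to 63.6) and an adhesion level of 421 (412 to 430). The 166 cells above it held 47.6 (43.5 to 52.1) and 284 (273 to 294). The erythroid level was 6.37 (5.32 to 7.57) in the first and 11.02 (9.08 to 13.3) in the second, and ribosomal protein genes stood at 210 and 320. The gut endoderm level was 0.198 and 0.197. Genes over 100 kb took 48.8% and 47.6% of the UMIs. In the 8 cells with a mitochondrial share under 5%, the limit that the study states for its own percentage, the pan-neuronal level was 88.2 and no gut endoderm UMI was found.

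EGFP had been left out of the clustering, so its counts did not enter the annotation, although its level depends on the total it is divided by. It is given per 10000 gene UMIs and was 2.93 (2.003 to 4.13) and 4.20 (2.53 to 6.57) in the founders and 10.1 (8.40 to 12.1) and 4.36 (3.29 to 5.66) in the F1 suspensions. F1_1 stood above the others, as it did in Neuroectoderm/Glia (33.3, against 12.7 to 14.9) and in CNS Neuron (38.1, against 16.4 to 19.0). The pooled level was 5.67 (4.96 to 6.46), which was below the 7.84 of near-empty droplets, pooled over all suspensions. The level was therefore not read as expression of the transgene in these cells.

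The EGFP level was lower than in 10 of the 15 other types in all 4 suspensions, and higher than in 2 types, Erythroblast and Erythrocyte. Against Neuroectoderm/Glia the mean log2 difference was -1.84 (SD 0.30, 4 of 4 suspensions lower; exact two-sided sign-flip permutation p = 0.125, the smallest that 4 suspensions allow, 0.156 after Benjamini-Hochberg adjustment over 15 types). Per UMIs outside mitochondrial genes it was -1.45. Against Foregut and Hepatocyte the mean log2 differences were -0.29 (SD 0.25; exact permutation p = 0.25) and -0.28 (SD 0.38; exact permutation p = 0.375). The founders were lower than the F1 suspensions by a mean log2 difference of -0.92 (exact permutation p = 0.333, the smallest possible). The groups lay apart only by the gap between F0_9 and F1_mix, whose intervals overlap, and per UMIs outside mitochondrial genes F0_9 stood at 5.93 and F1_mix at 5.36, so that the groups overlapped. Without 1 suspension the difference ran from -1.53 to -0.31, the latter without F1_1 and the former without F1_mix.

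The multiplexing oligos were not part of the gene profile either. The median oligo count per cell was 13728 and 14459 in the founders and 18278 and 18337 in the F1 suspensions. It was lower than in 13 of the 15 other types in all 4 suspensions. Against Neuroectoderm/Glia the mean log2 difference was -0.25 (SD 0.12, 4 of 4 lower), and against CNS Neuron it was -0.24 (SD 0.12). Each had an exact sign-flip permutation p of 0.125, the smallest possible, and an adjusted p of 0.144.

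The founders were then compared with the F1 generation, to ask whether embryos that may be mosaic differed from embryos with inherited integrations. Counts were summed over the annotated Midgut cells of each suspension, 2 against 2, and tested with edgeR. Of 2343 genes tested, 42 had an adjusted p under 0.05. Of these, 29 were higher in founders, or 1.24% of those tested, and 13 were lower, or 0.555%. At an unadjusted p under 0.05 there were 222 genes. The 20 genes with the smallest p are named below, with the fitted log2 difference, founders minus F1 generation, and edgeR's Benjamini-Hochberg adjusted p.

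Of the 29 genes higher in founders, 27 span more than 100 kb. Negr1, an adhesion protein of the neuronal surface, stood at 7.73 and 12.5 in the founders and 2.85 and 1.24 in the F1 suspensions, a log2 difference of 2.25 (SE 0.31, adjusted p = 1.2e-09). The groups did not overlap, which held with founders higher for 17.9% and with founders lower for 19.4% of 2330 tested genes outside mitochondrial ones. In Neuroectoderm/Glia the levels were 4.86 and 4.69 in founders and 1.497 and 1.33 in the F1 suspensions. Lingo2, a leucine-rich repeat protein of neurons, stood at 4.85, 4.37, 0.439 and 1.34 in the same order (2.35, SE 0.41, adjusted p = 5.6e-06). Its levels in Neuroectoderm/Glia were 3.61, 2.78, 0.991 and 1.04, again without overlap, while in CNS Neuron the groups overlapped for both Negr1 and Lingo2. Nrg3, Adgrb3, Dscaml1, Tafa2, Sorcs1, Sgcz, Pcdh15 and the potassium channel Kcnq5 rose by 1.22 to 1.96 on the log2 scale, and of these only Sgcz overlapped between the groups.

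Khdrbs2, a neuronal splicing regulator, stood at 5.63, 11.55, 1.32 and 2.58 (1.98, SE 0.32, adjusted p = 8.1e-07), and its founders lay above its F1 suspensions in both neuronal types too. The transcription factor Nfia, which acts late in the neural lineage, stood at 15.2, 18.4, 6.47 and 5.83 (1.44, SE 0.27, adjusted p = 3.7e-05). Its levels in CNS Neuron were 5.496, 3.71, 0.914 and 1.496, without overlap, while those in Neuroectoderm/Glia overlapped. Its relative Nfib, named here after its value was seen, was also higher (1.25, adjusted p = 0.0169). Ahi1, a gene of the primary cilium, and Taco1 were higher by 2.04 and 1.38 (adjusted p = 0.0041 and 0.00074), and the levels of Taco1 in both neuronal types were at most 0.205.

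The genes lower in founders were fewer, and 8 of the 13 span more than 100 kb. Sox4, a factor of newborn neurons, stood at 3.01 and 1.87 in the founders and 7.24 and 6.50 in the F1 suspensions (log2 difference -1.35, SE 0.33, adjusted p = 0.0048), while in Neuroectoderm/Glia it stood at 14.6 to 16.1 in all 4 suspensions. Tubb2b, a tubulin of migrating neurons, stood at 2.10, 1.25, 4.50 and 5.74 (-1.47, SE 0.37, adjusted p = 0.0077), and at 40.7 to 42.0 in Neuroectoderm/Glia. Both genes span less than 5 kb, and both differed between groups in the annotated Midgut cells by more than in the neuronal types, a difference that was not tested.

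Glra1, a glycine receptor subunit, stood at 1.18, 0.936, 4.17 and 4.78 (-1.99, SE 0.42, adjusted p = 0.00066). The transcription factor genes Pax5 and Pou3f1 and the gene Prtg had few UMIs in founders, so the ratio of F1 generation to founders is given with its exact counting interval. Pax5, a factor of the midbrain-hindbrain border and of some interneurons, had 2 UMIs in founders and 50 in the F1 generation, a ratio of 13.8 (3.64 to 117; adjusted p = 6.0e-05). Pou3f1, a POU factor, had 1 and 38, a ratio of 21.0 (3.56 to 853; adjusted p = 0.0012), and Prtg, an adhesion receptor of the early neural tube, had 3 and 40, a ratio of 7.38 (2.35 to 37.3; adjusted p = 0.0067). Prtg was also lower in founders, without overlap, in both neuronal types.

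**Figure D5:**
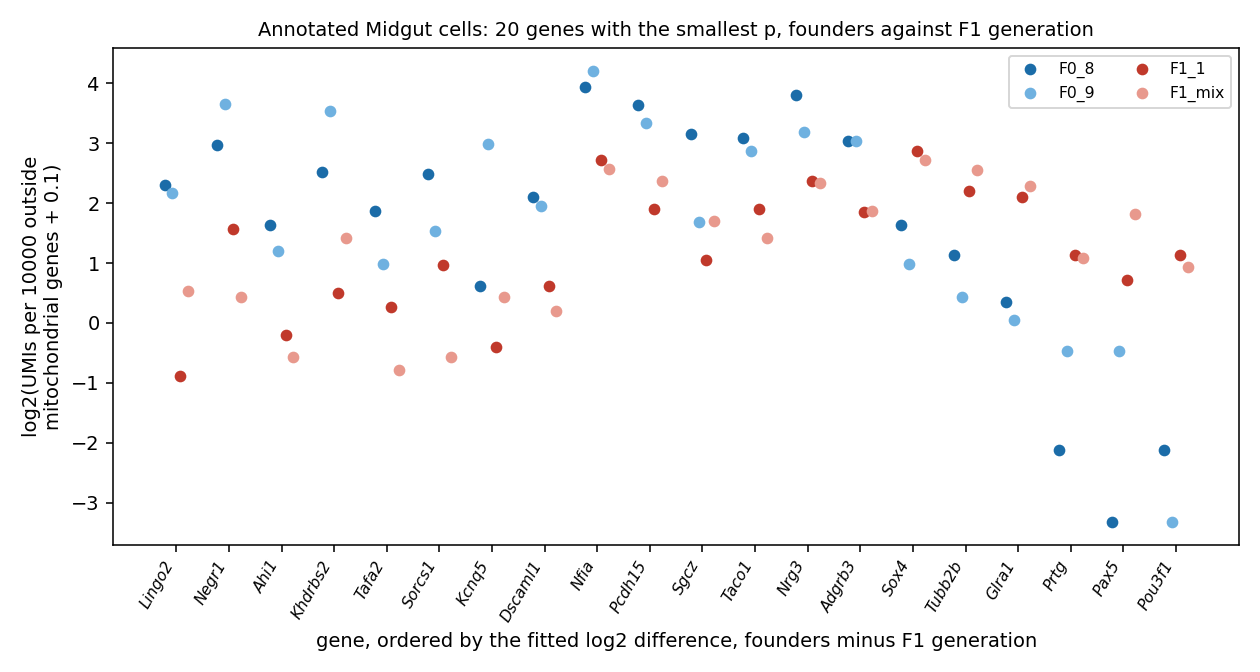
Level in the annotated Midgut cells of each suspension (y axis, log2 of UMIs per 10000 outside mitochondrial genes plus 0.1) for the 20 genes with the smallest p between founders and F1 generation (x axis). Blue founder points lie above red F1 points from Lingo2 to Adgrb3, except for Sgcz where they overlap, and below them from Sox4 to Pou3f1.

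Of the 42 genes, 35 span more than 100 kb, against 1055 of the 2343 tested. Of the synaptic and axonal adhesion genes 1 of 19 tested was called, which was Robo2, and of the channel and synaptic release genes none of 19. No pan-neuronal gene of 9 tested, no early differentiation factor of 5, no neuronal RNA-binding protein gene of 13, no transmitter gene of 4 and no ribosomal protein gene of 73 was called. Among the guidance receptors Robo2 and Plxna4 were higher in founders, of 12 tested and named after their values were seen, and among the short cytoskeletal genes Tubb2b was lower, of 9. The mitochondrial share was higher in both founders, and its part in these differences was not tested. Age, litter and handling of the embryos cannot be told apart from generation with 2 suspensions a group, all in 1 library. The number of calls was 10 without F0_8, 37 without F0_9, 32 without F1_1 and 25 without F1_mix. In each of these fits the lone suspension of a group was assumed to vary like the other group. DESeq2 called 7.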

How the data were processed

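Single-cell RNA-seq counts of E11.5 embryos were analysed. UMI counts were deposited by the authors as matrices made against GRCm38 with EGFP added, and the headers name Cell Ranger 7.2.0. Whether intronic reads were counted is not stated in the sources read. The mitochondrial percentage was deposited by the authors in the cell table, of which 5 columns were used and 17 were not. The authors had removed doublets with DoubletFinder and no caller was rerun. Counts were used without correction for free RNA.

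Cells were joined by suspension and barcode. Levels, profile correlations and likelihoods were computed with Python 3.11.15, numpy 2.4.6 and scipy 1.17.1. Founders and F1 generation were compared on counts summed per suspension with edgeR 4.0.16 (quasi-likelihood test, TMM, filterByExpr, Benjamini-Hochberg). DESeq2 1.42.0 was an alternative. The edgeR and likelihood steps were tested on simulated data. Near-empty droplets were the 53828 barcodes with 100 to 300 gene UMIs that were in no filtered matrix. Gene spans came from RefSeq for GRCm38.p6, matched by symbol for 96.7% of 21937 gene features.

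Each group held 2 suspensions, so p-values rest on the spread between 2 embryos or mixtures. Named genes, with at least 50 UMIs for each highest ratio, were the 15 highest and 10 lowest ratios to the median of the deep types, the 10 highest and 10 lowest against the type of highest correlation, the 5 highest against the other shallow types, the 10 with the most UMIs, the list members with the highest level and the 20 smallest p. The members and lists were chosen with earlier results of these data known. Some genes that the rule would name are not reported here.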

Additional observations from a re-analysis of the deposited data

How the results depend on the processing

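The share of annotated Midgut cells (-3.32 to -0.30 points between generations without 1 suspension), the EGFP difference from Neuroectoderm/Glia (-1.93 to -1.70 without 1 suspension, -1.45 per UMIs outside mitochondrial genes) and the oligo difference (-0.28 to -0.19 without 1 suspension) kept their direction under the alternatives run. The EGFP and oligo differences from other types were paired within suspension. Founders and F1 suspensions could not be paired with each other, because the labels give the suspensions no replicate numbers.

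Of the 42 genes that differed between founders and F1 generation, the count was 7 with DESeq2, 18 with no filter on low counts, and 10 to 37 when 1 suspension was left out (10 without F0_8, 25 without F1_mix). It was 8 with cells of 1000 or more gene UMIs, an alternative chosen after seeing the data.

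The pan-neuronal level of 56.0 was 42.2 per all gene UMIs and 63.8 in cells with a mitochondrial share under 20%. It was 88.2 in the 8 cells under 5%, where the gut endoderm level was 0 (chosen after seeing the data), and 52.3 to 58.7 without 1 suspension. The correlation of 0.77 with Neuroectoderm/Glia was 0.68 over genes of 100 kb or less, 0.84 over longer genes, 0.70 over 5000 genes and 0.71 with a pseudocount of 1. Its excess over CNS Neuron of 0.05 became -0.028 over genes of 100 kb or less. The share of cells nearest to Neuroectoderm/Glia was 60.2% in cells of 1000 or more UMIs and 23.4% with the 3 other shallow types as candidates, and that nearest to either neuronal type was then 24.9%.

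The 1706 genes higher than in Neuroectoderm/Glia were 275 and the 1579 lower genes 451 with a pseudocount of 1, and 883 were higher and 1910 lower per all gene UMIs. The gap of 2.52 between the median log2 differences of genes over 100 kb and of at most 10 kb was 2.91 and 1.1004 with pseudocounts of 0.01 and 1, and it pointed the same way in each. The causes of these moves were not tested. With 4 suspensions no sign-flip test could pass its threshold, and at 304099 UMIs a gene below 0.0987 cannot be told from 0. For single genes, gene levels were judged by a fixed limit on the change in log2 ratio, and founder differences by the adjusted p threshold. Under an alternative, 537 values kept their direction and stayed within that limit or passed that threshold. Of the founder differences, 172 kept the direction but no longer passed the threshold, and 79 gene level ratios moved beyond the limit.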
